A study of Mus musculus with 12 samples.

Results

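The genes described here are 34 genes of glucose transport, glycolysis and the response to low oxygen, taken by gene symbol from the 22753 genes of a count table of mouse embryonic stem cells. All 34 symbols were found in the table, and all 34 passed the filter on low counts that left 15179 genes for testing. RNA was sequenced from 12 libraries, 3 in each of 4 groups. Each of clone 10 and clone 4 gave a GFP-positive and a GFP-negative group. GFP-positive cells carried Cre-GFP and are labelled Sphk1-/- Sphk2-/-, and GFP-negative cells are labelled Sphk1fl/fl Sphk2-/-. Both sphingosine kinase genes are therefore labelled as lost in GFP-positive cells, and Sphk2 is absent by label from every group. All cells, GFP-negative ones included, received 6 uM 4-hydroxytamoxifen for 48 hours. Each clone is a single line, the promoter that drives Cre-GFP is not named, and the age of the mice of origin is not given. The labelled passages were 12, 18 and 20 for GFP-positive replicates 1, 2 and 3 of clone 10, and 11, 17 and 19 for its GFP-negative replicates. For clone 4 they were 11, 14 and 16 for GFP-positive replicates and 11, 13 and 15 for GFP-negative ones.

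Glycolysis turns glucose into pyruvate, and lactate dehydrogenase turns pyruvate into lactate, which leaves the cell through monocarboxylate transporters. When oxygen is low, hypoxia-inducible factor (HIF) escapes its prolyl hydroxylases, binds a short motif at its target genes and raises transporters, glycolytic enzymes, mitophagy genes and its own hydroxylases. Mouse embryonic stem cells in serum and leukaemia inhibitory factor are known for a high rate of glycolysis, and many glycolytic enzymes are also targets of MYC.

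Libraries held 12968916 to 34258395 counts, and levels are given as CPM, counts scaled to the effective library size. GFP-positive and GFP-negative libraries that share a clone and a replicate number are called a pair. In every pair but replicate 1 of clone 4, the GFP-positive library is labelled at a later passage than its partner. Within those pairs, gate and passage cannot be told apart. The labels do not say that paired libraries came from the same culture. Mitochondrial genes took a larger share of counts in the GFP-positive library of all 6 pairs, with 0.143% in the shallowest library, GFP-negative replicate 1 of clone 10, and 0.594% to 2.32% in the other 11. The 12 embryonic stem cell markers listed averaged 8.50 to 9.55 log2 CPM in every library. Markers of the labelled cell type were thus present throughout. Within pairs, 11 of the 12 were lower in GFP-positive cells over both clones (median log2 change -0.26), with 0 called. Sphk1, the gene targeted by Cre, had 0.73 to 2.86 CPM in the 6 libraries labelled Sphk1-/-, against 0.84 to 4.17 CPM in the 6 GFP-negative ones. The ranges overlapped (change over both clones -0.63, SE 0.46, adjusted p = 0.767 by edgeR, and adjusted p = 0.166 within pairs), so these counts do not check the label, and which exons are deleted is not stated. Sphk2 had 1.16 to 8.95 CPM in all 12 libraries. Markers of other cells also moved with the gate. The mean log2 level of 22 fibroblast markers was lower on the GFP-positive side of 5 of 6 pairs. Within pairs 7 were called lower over both clones, beside 0.85% of all genes. The 22 markers summed to 1698 to 2804 CPM in GFP-positive libraries and to 1556 to 4271 CPM in GFP-negative libraries. The 10 markers of the 2-cell-like state averaged higher in GFP-positive cells in all 6 pairs. Endoderm markers summed to 8.85 to 26.4 CPM. Paired libraries deviated together from their group means (correlations of 0.548 to 0.822 in the 6 pairs), so each gate comparison was made in a fit across libraries and in a fit within pairs. The labels do not say that replicates were separate cultures, and the p-values then cover only the spread of these samples, which may be technical.

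Levels within the pathway were compared per kilobase of exon, since long genes collect more reads. Aldoa, an aldolase that splits fructose bisphosphate, had the highest median over the 12 libraries, 451 CPM per kilobase. Pkm, the pyruvate kinase of the last step, followed with 426 CPM per kilobase and Slc2a3, a high-affinity glucose transporter, with 389 CPM per kilobase. The ranges of these 3 genes overlapped, so their order is not settled by the spread between libraries. Ldha, the lactate dehydrogenase subunit that favours lactate, stood at 154 CPM per kilobase, and the glucose transporter Slc2a1 at 133. Car9, a carbonic anhydrase of the cell surface, was lowest with a median of 0.55 CPM per kilobase.

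Related enzymes were expressed unequally. Aldoa ranged from 328 to 1689 CPM per kilobase, and Aldoc, the aldolase known from brain, from 2.88 to 37.7. Eno1, the widespread enolase, ranged from 53.6 to 278 CPM per kilobase, and the neuronal enolase Eno2 from 1.64 to 23.0. Neither pair overlapped. Among the hexokinases, which trap glucose in the cell, Hk2 spanned 24.7 to 74.7 CPM per kilobase and Hk1 4.56 to 14.5. Of the 3 phosphofructokinases, Pfkl had a median of 29.6 CPM per kilobase, Pfkm 25.2 and Pfkp 11.6, with overlapping ranges. Gapdh ranked only 27 of 34 with a median of 5.83 CPM per kilobase. In the GENCODE transcripts, 25.1% of its stretches of 50 bases also occur in other genes, 223 of them in all, so reads from Gapdh may have been left uncounted or assigned elsewhere. The same share was 53.9% for Pgk1, 47.2% for Bnip3, 36.2% for Pgam1, 25.99% for Eno1, 25.8% for Pkm and 24.4% for Higd1a. It was 20.8% for Bnip3l, 17.0% for Ankrd37 and 15.8% for Gpi1, and the levels of all these genes are uncertain for the same reason. Eno1 and Pkm still ranked 8 and 2 of 34, and whether shared stretches lowered the rank of Gapdh was not tested. The share was 0% for Hk2, Aldoc, Pdk1, Slc16a3, Egln1, Egln3, Adm and P4ha1 and 0.244% for P4ha2.

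**Figure D1:**
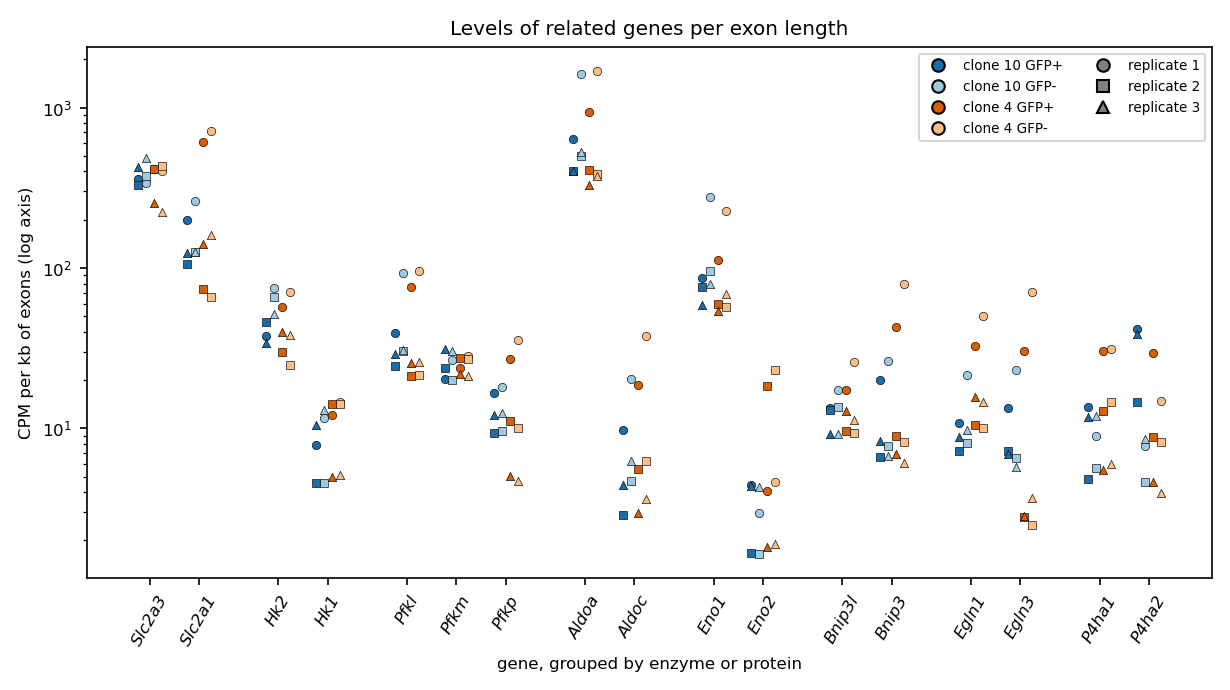
Level in CPM per kilobase of exon (log axis) of genes that encode related enzymes or proteins, a point per library, with colour for the group and shape for the replicate number. Aldoa lies above Aldoc and Eno1 above Eno2 in every library, and the circles of replicate 1 lie at the top for genes such as Aldoc, Bnip3 and Egln3.

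Gate comparisons addressed the change with Cre-GFP in each clone and over both. Most of the 34 genes had slightly lower values in GFP-positive cells, few of them passed a test, and P4ha2, a catalytic subunit of the prolyl hydroxylase that modifies collagen, had higher values. Across all libraries, edgeR's quasi-likelihood test called 0 of the 34 genes in clone 10, in clone 4 or over both clones at an adjusted p under 0.05. The shares called among all 15179 genes were 0%, 0% and 0.158%. DESeq2 called 1 member in clone 10, P4ha2 (adjusted p = 0.0407), beside 1.69% of genes, and 0 in clone 4 and over both clones, beside 0.186% and 1.7%. At an unadjusted p under 0.05 there was 1 member in clone 10, 0 in clone 4 and 1 over both clones, while 7.45%, 1.38% and 6.77% of all genes passed that mark. The median log2 change of the 34 genes was -0.44 in clone 10, -0.34 in clone 4 and -0.43 over both clones, beside -0.04, 0.00 and -0.01 for all genes tested. Without GFP-negative replicate 1 of clone 4 the clone 4 median was 0.55 and that over both clones 0.00, and without GFP-negative replicate 1 of clone 10 the clone 10 median was 0.02. Negative changes numbered 30, 32 and 31 of 34 in the same order, beside 53.5%, 50.1% and 51.2% of all genes.

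Within pairs, 3 members were called in clone 10, beside 4.22% of all genes, namely P4ha2, higher, and Pdk1 and Hk2, lower. Over both clones the 3 called were P4ha2, higher, and Pdk1 and Aldoc, lower, beside 3.36% of all genes. In clone 4 there were 0, beside 0.119% of all genes, with 4 members at an unadjusted p under 0.05, beside 7.42%. Of all genes, 3.49% were called higher and 0.731% lower in clone 10, and 2.51% and 0.85% over both clones. At an unadjusted p under 0.05 there were 10 members in clone 10 and 13 over both clones, beside 25.2% and 26.3% of all genes. The median change of the 34 genes within pairs was -0.33 in clone 10, -0.20 in clone 4 and -0.31 over both clones. All genes gave -0.01, 0.00 and 0.00 in the same order, and the 12 embryonic stem cell markers -0.40, -0.11 and -0.26. In clone 10 and over both clones, a lean of about this size was thus not particular to the 34 genes. The difference between the gate changes of the clones was called for 0 members both across libraries and within pairs, beside 0% of all genes in each fit and 0% by DESeq2 across libraries. Unadjusted, 0 and 4 members passed for it, beside 0.922% and 7.69% of all genes. With the pair as a term, DESeq2 called more members, 9 in clone 10, 1 in clone 4 and 9 over both clones, beside 10.1%, 1.19% and 9.41% of genes. It also called P4ha2 for the difference between the clones, beside 0.441%.

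P4ha2 had 261, 91.5 and 242 CPM in GFP-positive replicates 1, 2 and 3 of clone 10, against 48.2, 29.0 and 53.7 CPM in GFP-negative ones. In clone 4 it had 185, 55.1 and 28.7 CPM in GFP-positive cells, against 92.0, 51.2 and 24.5 CPM in GFP-negative cells. The clone 10 groups did not overlap, the clone 4 groups did, and GFP-positive cells were higher in all 6 pairs, which 8.71% of all genes also were. In clone 10 its log2 change was 2.18 across libraries (SE 0.67, adjusted p = 0.324 by edgeR) and 2.09 within pairs (SE 0.21, adjusted p = 0.00212). The clone 4 change was 0.68 (SE 0.65) and 0.45 within pairs (SE 0.21, adjusted p = 0.673). Over both clones it was 1.43 (SE 0.47, adjusted p = 0.389) and 1.27 within pairs (SE 0.15, adjusted p = 0.00304). It stayed called within pairs, in clone 10 and over both clones, without any single pair. The authors' deposited table for clone 10 gives P4ha2 a log2 fold change of 1.66 with a DESeq2 adjusted p of 0.000296. It is the single member among the 418 called of 15479 genes with an adjusted p. For clone 4 the authors' deposited table gives it 0.30, and 0 members are among the 8 called of 13352 genes. Members without an adjusted p could not be called. Pgk1, Eno1 and Egln3 had none in either clone, and Aldoa, Tpi1 and Slc16a3, among others, had none in clone 4.

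The 2-cell-like markers, like P4ha2, were higher on the GFP-positive side of all 6 pairs. In GFP-positive cells of each clone, the replicates ranked in the same order for the marker sum and for P4ha2. In GFP-negative cells of each clone they ranked in different orders. Between groups, near-equal P4ha2 levels could go with unlike marker sums. P4ha2 had 92.0 CPM in GFP-negative replicate 1 of clone 4 and 91.5 CPM in GFP-positive replicate 2 of clone 10. The marker sums there were 13.7 and 699 CPM. The 10 marker genes summed to 3158, 699 and 2036 CPM in GFP-positive replicates 1, 2 and 3 of clone 10, against 189, 82.4 and 62.5 CPM in GFP-negative ones. Clone 4 sums were 204, 28.1 and 22.4 CPM in GFP-positive cells, against 13.7, 3.28 and 5.27 CPM in GFP-negative cells. Within pairs 9 of the 10 were called higher over both clones and 0 lower, beside 2.51% and 0.85% of all genes. Fewer cells of a type and less RNA per cell cannot be told apart in bulk libraries, and the part of 2-cell-like cells in the P4ha2 result was not tested. P4ha1, which encodes the other common catalytic subunit of the same enzyme, had 55.7, 19.9 and 48.3 CPM in GFP-positive cells of clone 10, against 36.6, 23.3 and 48.8 CPM in GFP-negative cells. Its change over both clones was 0.05 across libraries (SE 0.46) and 0.00 within pairs (95% interval -0.40 to 0.40), without the difference seen for P4ha2. Whether the 2 genes differ from each other was not tested.

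Pdk1 encodes a kinase that shuts off pyruvate dehydrogenase and so keeps pyruvate from the mitochondria. It had 121, 90.8 and 66.7 CPM in GFP-positive replicates 1, 2 and 3 of clone 10, against 192, 138 and 107 CPM in GFP-negative ones. Clone 4 levels were 336, 76.2 and 145 CPM in GFP-positive cells, against 461, 82.1 and 158 CPM in GFP-negative cells. The groups overlapped in both clones, but the GFP-positive library was lower in each of the 6 pairs. Its log2 change in clone 10 was -0.65 across libraries (SE 0.61, adjusted p = 0.84 by edgeR) and -0.65 within pairs (SE 0.12, adjusted p = 0.0198). Over both clones it was -0.49 (SE 0.43, adjusted p = 0.803) and -0.44 within pairs (SE 0.08, adjusted p = 0.0277). With both replicate 1 pairs left out the adjusted p over both clones was 0.0048. The calls were lost without other pairs, over both clones without any pair but clone 10 replicate 1, and in clone 10 without clone 4 replicate 3 or clone 10 replicate 2 or 3, while the change stayed between -0.38 and -0.47 over both clones.

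Aldoc had 31.6, 9.39 and 14.5 CPM in GFP-positive replicates 1, 2 and 3 of clone 10, against 66.1, 15.2 and 20.3 CPM in GFP-negative ones. In GFP-positive cells of clone 4 it had 60.8, 18.2 and 9.67 CPM, against 123, 20.4 and 11.9 CPM in GFP-negative cells. GFP-positive cells were lower in all 6 pairs, and the groups overlapped in both clones. Its change over both clones was -0.84 across libraries (SE 0.64, adjusted p = 0.776 by edgeR) and -0.63 within pairs (SE 0.14, adjusted p = 0.0461). The call within pairs was lost without any single pair other than clone 10 replicate 1, with adjusted p-values up to 0.169.

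Hk2, a hexokinase that can bind mitochondria and a known HIF target, was the single member whose clone 10 groups did not overlap downwards. It had 224, 274 and 204 CPM in GFP-positive cells of clone 10, against 446, 393 and 307 CPM in GFP-negative cells. Clone 4 levels were 340, 179 and 239 CPM in GFP-positive cells, against 423, 147 and 228 CPM in GFP-negative cells, lower in 1 of 3 pairs. Groups lay apart in clone 10 with GFP-positive cells below for 5.57% of all genes and above for 9.39%, and P4ha2 was the single member above. In clone 4 there were 0 such members, beside 1.89% of genes below and 1.86% above. The clone 10 change was -0.71 across libraries (SE 0.36, adjusted p = 0.69 by edgeR) and -0.70 within pairs (SE 0.15, adjusted p = 0.0389). Clone 4 gave -0.08 across libraries (SE 0.36) and 0.01 within pairs (SE 0.15). The call in clone 10 was lost without any pair other than clone 4 replicate 1. The difference between the clones was -0.71 within pairs (95% interval -1.20 to -0.23, adjusted p = 0.543 by edgeR), which did not pass.

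**Figure D2:**
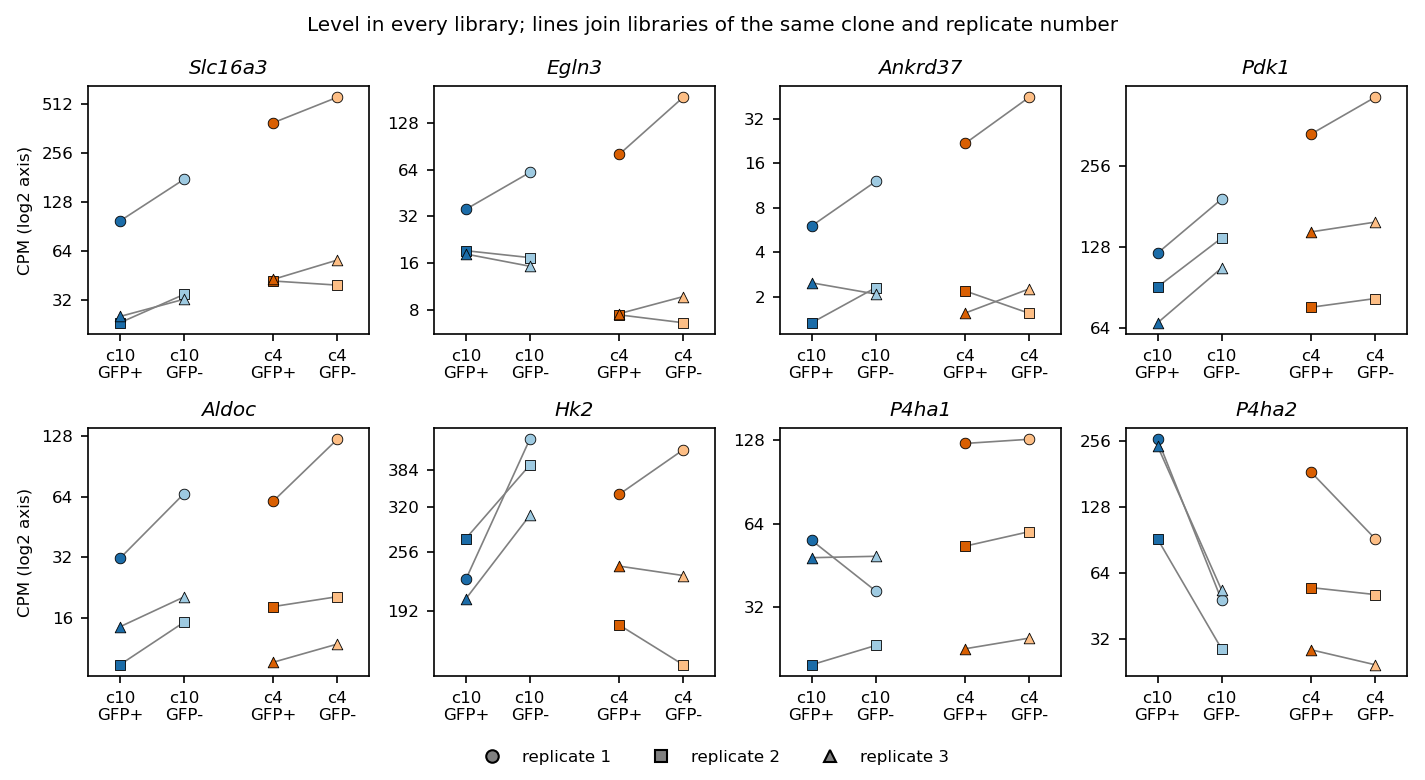
Level in CPM (log2 axis) of 8 genes in each library of clone 10 (c10) and clone 4 (c4), GFP-positive beside GFP-negative, with lines that join paired libraries. P4ha2 lies higher and Pdk1 and Aldoc lower in the GFP-positive library of every pair, and in Slc16a3, Egln3 and Ankrd37 the circles of replicate 1 lie above the squares and triangles of the same group.

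By role, the glycolytic steps had mostly negative changes. Of the 10 genes from the hexokinases to triose phosphate isomerase, 9 had a negative change within pairs over both clones, with a median of -0.33 and 1 called, Aldoc. Of the 6 genes of the payoff steps, 6 had a negative change, with a median of -0.34 and 0 called. In this fit the median of all genes was 0.00, with 3.36% called and 0.85% called lower. Of the 12 embryonic stem cell markers, 11 had a negative change, with a median of -0.26. Gpi1, Pfkl, Aldoc and Pdk1 were the 4 members lower in the GFP-positive library of all 6 pairs, beside 7.29% of all genes, counting any difference below 0. For Pfkl the clone 4 replicate 2 pair was all but tied, at 142.52 CPM in GFP-positive and 142.54 CPM in GFP-negative cells. Gapdh, the gene of glyceraldehyde phosphate dehydrogenase, had 20.8, 38.8 and 14.3 CPM in GFP-positive replicates 1, 2 and 3 of clone 10, against 20.4, 59.5 and 21.0 CPM in GFP-negative ones. Clone 4 levels were 27.2, 17.3 and 35.8 CPM in GFP-positive cells, against 49.9, 21.0 and 44.7 CPM in GFP-negative cells. It was lower in GFP-positive cells in 5 of 6 pairs, by -0.44 within pairs over both clones (95% interval -0.73 to -0.16, adjusted p = 0.0967 by edgeR).

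Hypoxia-responsive genes outside glycolysis gave wider values. Ndrg1, named as a gene regulated downstream of N-Myc and well known to rise in hypoxia, had 25.9, 11.0 and 6.23 CPM in GFP-positive replicates 1, 2 and 3 of clone 10, against 43.8, 13.7 and 6.997 CPM in GFP-negative ones. In GFP-positive cells of clone 4 it had 31.3, 12.7 and 5.26 CPM, against 106, 12.6 and 7.57 CPM in GFP-negative cells. Most of its difference lay in the replicate 1 pair of clone 4, and over both clones it was -0.61 within pairs (adjusted p = 0.14 by edgeR). Adm, the secreted peptide adrenomedullin, had 5.22, 1.52 and 29.7 CPM in GFP-positive cells of clone 10, against 3.07, 2.17 and 47.4 CPM in GFP-negative cells. Clone 4 levels were 7.69, 7.30 and 0.76 CPM in GFP-positive cells, against 22.1, 12.3 and 1.74 CPM in GFP-negative cells. It was lower in all 3 pairs of clone 4 and in 2 of 3 pairs of clone 10, with a clone 4 change of -1.16 within pairs (SE 0.29, adjusted p = 0.275 by edgeR).

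The leading members of the remaining roles did not pass the test. Slc2a1 had a change over both clones of -0.16 within pairs (95% interval -0.37 to 0.06). Egln1, the HIF prolyl hydroxylase that sets HIF levels in normal oxygen, gave -0.30 (-0.63 to 0.04). Higd1a, a small protein of the inner mitochondrial membrane, gave -0.29 (-0.63 to 0.05). Slc16a3, the lactate exporter, gave -0.44 (-0.69 to -0.19, adjusted p = 0.0665 by edgeR) and was lower in 5 of 6 pairs.

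The size of the downward lean differed by pair. The median of the 34 differences was -0.63 and -0.54 log2 units in the replicate 1 pairs of clone 10 and clone 4. It was -0.20 and 0.05 in the replicate 2 pairs, and -0.18 and -0.12 in the replicate 3 pairs. The medians of all genes in the same pairs lay between -0.03 and 0.07. In the replicate 2 pair of clone 4, 10 of 34 members were lower and 24 higher, so the lean was not present in every pair. With both replicate 1 pairs left out, the median over both clones was -0.10 within pairs. In that fit 7 members were called, 6 of them lower and P4ha2 higher, while 7.69% of all genes were called, 3.92% lower. The lower ones were Pdk1, Aldoc, Tpi1, Adm, Gapdh and Eno1. The same fit called 10 members in clone 10, 1 in clone 4 and 2 for the difference between the clones, Hk2 and P4ha2, beside 12.7%, 1.32% and 0.361% of genes.

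**Figure D3:**
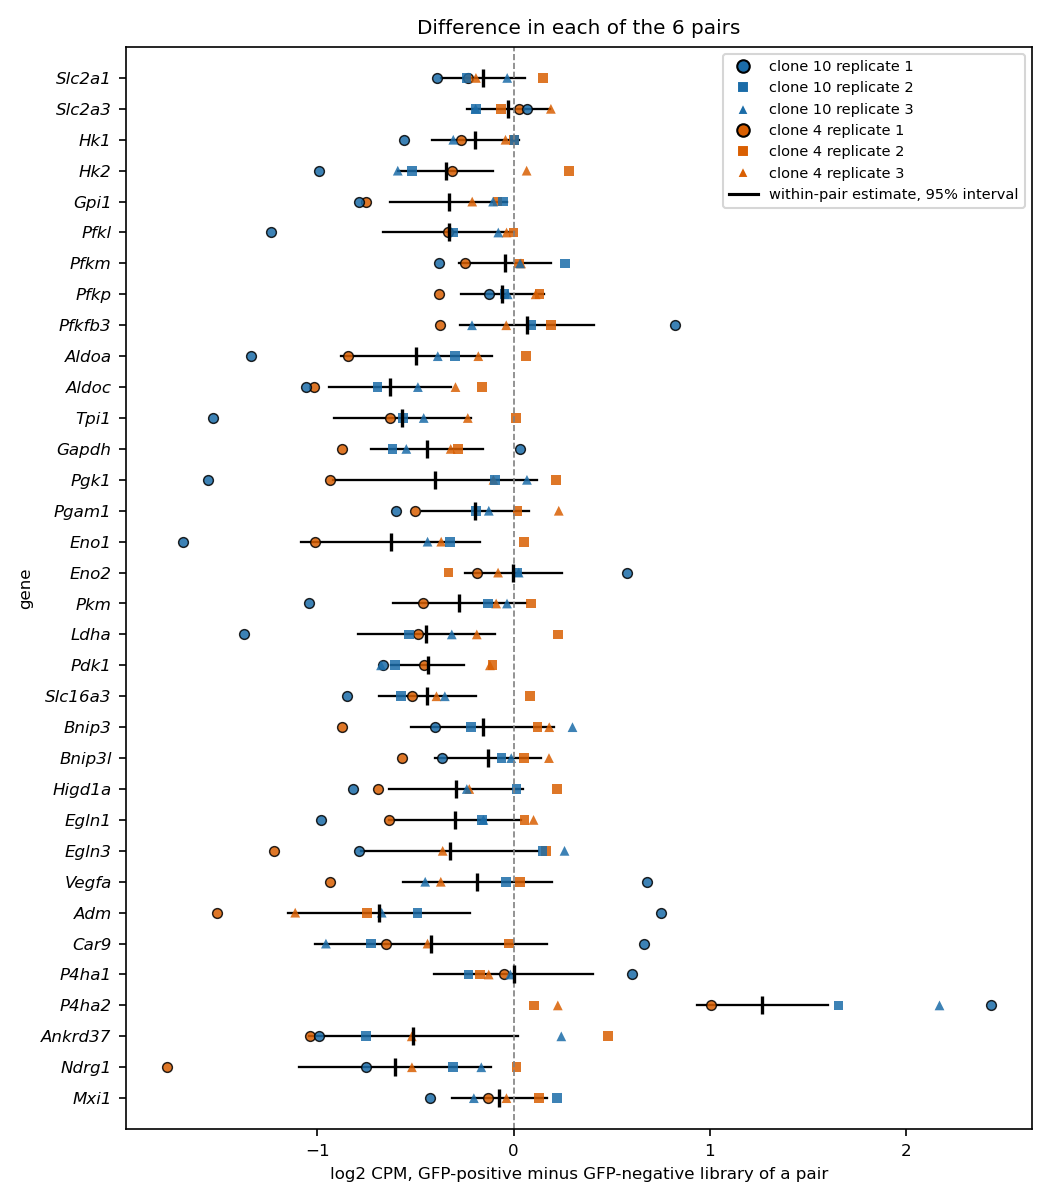
Difference in log2 CPM between the GFP-positive and the GFP-negative library of each of the 6 pairs, a row per gene, with the within-pair estimate over both clones and its 95% interval in black. Circles of the replicate 1 pairs lie furthest to the left for most glycolytic genes, and P4ha2 alone lies to the right in all 6 pairs.

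The clones were compared within each gate. Clone 10 differed from clone 4 in 0 of the 34 genes by edgeR in GFP-positive cells, beside 1.11% of all genes, and in 0 in GFP-negative cells, beside 0.0461%. At an unadjusted p under 0.05 there were 0 members in both gates, beside 14.3% and 11.9% of all genes. DESeq2 also called 0 members in both, beside 5.25% and 2.47%. For 0 of the 34 did the clones lie apart, while clone 10 lay below clone 4 for 12.4% of all genes and above for 12.5% in GFP-positive cells, and for 7.03% and 6.81% in GFP-negative cells. The median difference of the members was -0.23 log2 units in GFP-positive cells and -0.25 in GFP-negative cells, beside 0.00 and 0.04 for all genes, and 28 and 23 members were negative, beside 50.4% and 46.6%. Eno2 shows how wide the spread was, with 13.9, 7.74 and 20.2 CPM in GFP-negative replicates 1, 2 and 3 of clone 10, against 21.9, 108 and 8.996 CPM in clone 4. Its difference was -1.73 (SE 0.93, adjusted p = 0.486 by edgeR). Car9 had 0.74, 0.79 and 1.90 CPM in GFP-negative clone 10 cells, against 3.79, 3.52 and 1.31 CPM in clone 4 cells, a difference of -1.31 (SE 0.64, adjusted p = 0.451). P4ha1 gave -0.69 (SE 0.65) in GFP-positive cells and -0.97 (SE 0.66) in GFP-negative cells. The clone medians rest on the first replicates, since they were 0.06 in GFP-positive cells and 0.14 in GFP-negative cells with the 4 replicate 1 libraries left out.

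Of the comparisons made, that between replicate numbers gave these genes their largest median difference. Replicate 1, at passages 11 and 12, had the highest level of its group in all 4 groups for 20 of the 34 genes, beside 10.9% of all genes, and the lowest in all 4 groups for 0, beside 10.3%. The 20 were Slc2a1, Gpi1, Pfkl, Pfkp, Aldoa, Aldoc, Tpi1, Pgk1, Eno1, Pkm, Ldha, Pdk1, Slc16a3, Bnip3, Bnip3l, Higd1a, Egln1, Egln3, Ankrd37 and Ndrg1. Together the 34 genes took 0.723% to 1.102% of counts in the 8 later libraries, against 1.22% to 2.51% in the 4 libraries of replicate 1.

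Replicates 2 and 3 were therefore compared with replicate 1, in a comparison chosen after the values were seen. The sums of both gates of each clone and replicate number were used, which leaves 4 sums against 2. The edgeR test called 0 of the 34 genes, beside 0% of all 15859 genes tested, and the smallest adjusted p among members was 0.176. At an unadjusted p under 0.05 there were 21 members, all lower in the later replicates, beside 16.5% of all genes, 8.87% lower. The median change of the 34 genes was -1.15 log2 units, beside 0.01 for all genes, and 31 of 34 were negative, beside 48.9%. The median was -0.68 without replicate 1 of clone 4, and -1.63 without replicate 1 of clone 10. DESeq2 called 18 members on the same sums, all lower, beside 5.63% of genes, 3.06% lower. In GFP-negative libraries alone edgeR called 17, all lower, beside 3.75% of genes, 2.07% lower, and in GFP-positive libraries alone 0, beside 0% of genes. Marker lists moved in the same contrast. All 10 markers of the 2-cell-like state were lower in the later replicates (median -2.23) and 20 of 22 fibroblast markers higher (median 0.94), with 0 called in each list by edgeR, and their part in the result was not tested. Replicate number and passage cannot be told apart here.

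Slc16a3 had the clearest contrast. It had 23.0 and 25.2 CPM in GFP-positive replicates 2 and 3 of clone 10, against 97.3 CPM in replicate 1, and 34.4 and 32.1 CPM against 175 CPM in GFP-negative cells. Clone 4 had 41.6 and 42.6 CPM against 391 CPM in GFP-positive cells, and 39.2 and 56.0 CPM against 561 CPM in GFP-negative cells. Later and first replicates did not overlap in any group, and the change was -2.81 (SE 0.30, adjusted p = 0.176 by edgeR). Slc2a1, the main glucose transporter of HIF targets, had 372 and 432 CPM against 701 CPM in GFP-positive clone 10 cells, and 257 and 494 CPM against 2135 CPM in GFP-positive clone 4 cells. GFP-negative cells had 439 and 442 CPM against 919 CPM in clone 10, and 232 and 564 CPM against 2510 CPM in clone 4. Its change was -1.81 (SE 0.45, adjusted p = 0.187), and it was -0.86 without replicate 1 of clone 4.

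Glycolytic enzymes ranged widely in the same contrast. Aldoc gave -2.11 (SE 0.35), Ldha -1.69 (SE 0.30), Tpi1, triose phosphate isomerase, -1.62 (SE 0.19) and Aldoa -1.46 (SE 0.23), each at an adjusted p of 0.176. Slc2a3, Pfkm and Gapdh gave -0.04 (SE 0.30), 0.07 (SE 0.22) and 0.13 (SE 0.51). Eno2 gave 0.42 (SE 0.93) and was highest in replicate 2 of clone 4, with 86.1 CPM in GFP-positive and 108 CPM in GFP-negative cells. The signs of Gapdh, Eno2, Adm and Car9 turned with single pairs left out.

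Among the HIF feedback and mitophagy genes, Egln3, the prolyl hydroxylase most strongly induced by HIF, had 19.3 and 18.3 CPM in later GFP-positive replicates of clone 10, against 35.6 CPM in replicate 1, and 17.4 and 15.3 CPM against 61.4 CPM in GFP-negative cells. Clone 4 had 7.43 and 7.57 CPM against 80.4 CPM in GFP-positive cells, and 6.61 and 9.75 CPM against 187 CPM in GFP-negative cells. Its change was -2.94 (SE 0.58, adjusted p = 0.178 by edgeR). Bnip3, a mitophagy receptor, gave -2.35 (SE 0.33), and its relative Bnip3l -0.69 (SE 0.25). Ankrd37, an ankyrin repeat gene, gave -3.20 (SE 0.51), with 1.33 to 2.48 CPM in the 8 later libraries against 6.04 to 44.9 CPM in the 4 of replicate 1. Stretches shared with its neighbours Lrp2bp and Ufsp2 make up 17.0% of Ankrd37, so part of its level may be theirs. Egln1, Higd1a and Ndrg1 gave -1.25 (SE 0.28), -1.05 (SE 0.20) and -2.34 (SE 0.42).

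Vegfa, Adm and Car9, the secreted and surface targets, did not share this order. Their changes were -0.24 (SE 0.59), -0.04 (SE 1.49) and -0.25 (SE 0.60). In replicate 3, Adm stood at 29.7 CPM in GFP-positive and 47.4 CPM in GFP-negative cells of clone 10, against 0.76 and 1.74 CPM in the same gates of clone 4. Vegfa, the angiogenic growth factor, stood there at 79.6 and 109 CPM in clone 10, against 17.8 and 23.0 CPM in clone 4. In replicate 2 Vegfa had 59.0 and 60.6 CPM in clone 10, against 104 and 102 CPM in clone 4. This crosswise order, replicate 2 above 3 in clone 4 and 3 above 2 in clone 10 in both gates, was met by 13 of the 34 genes, beside 30.4% of all genes.

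**Figure D4:**
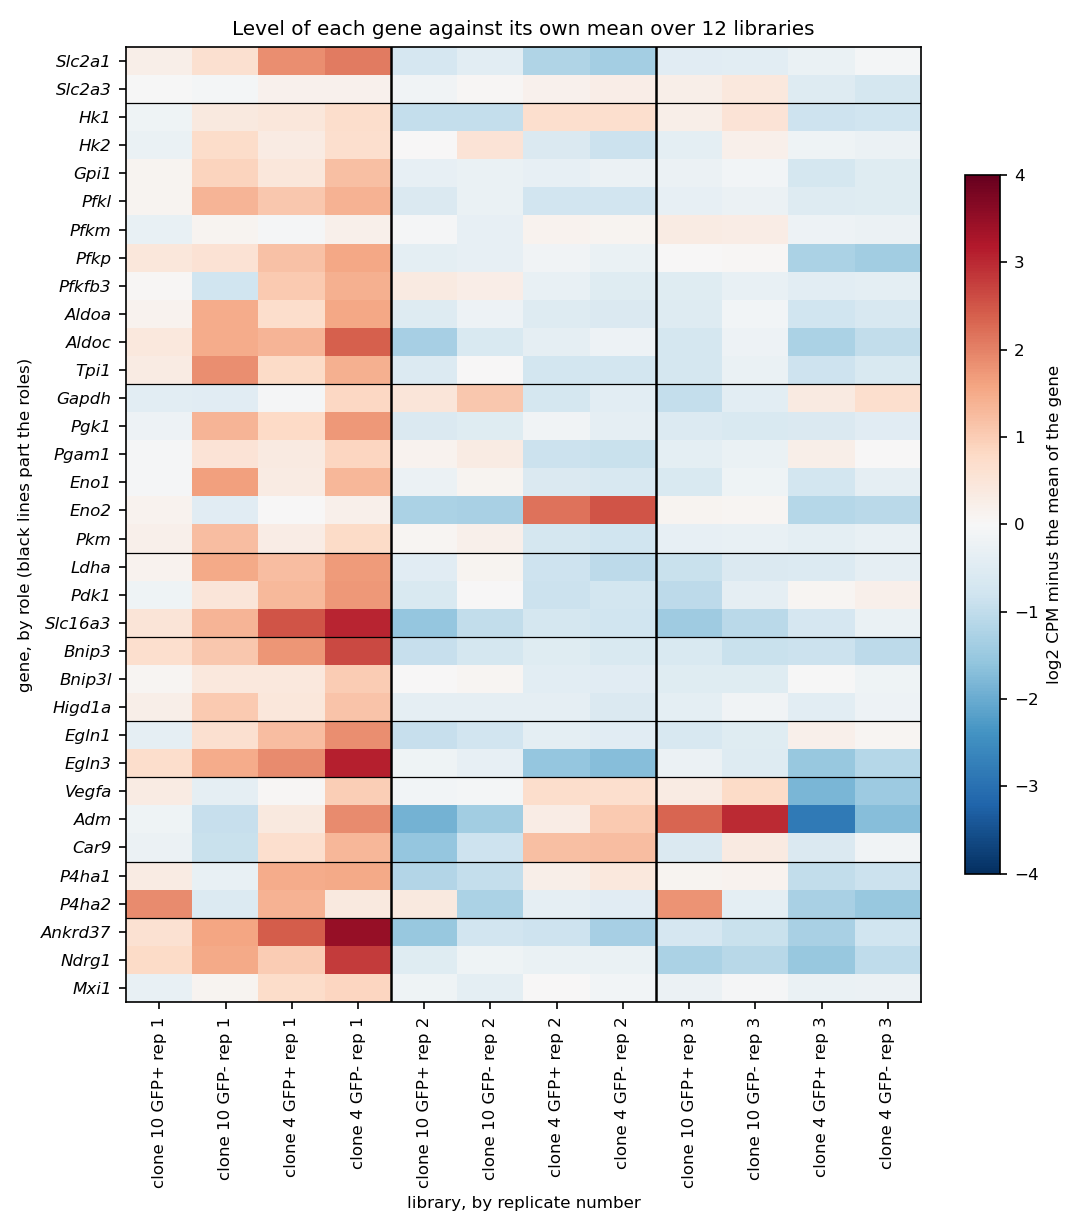
Level of each of the 34 genes in each of the 12 libraries, as log2 CPM minus the mean of that gene over all libraries, with columns grouped by replicate number and rows by role. The 4 columns of replicate 1 are red for most rows, and Eno2 in replicate 2 of clone 4 and Adm in replicate 3 of clone 10 are red outside them.

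**Figure D5:**
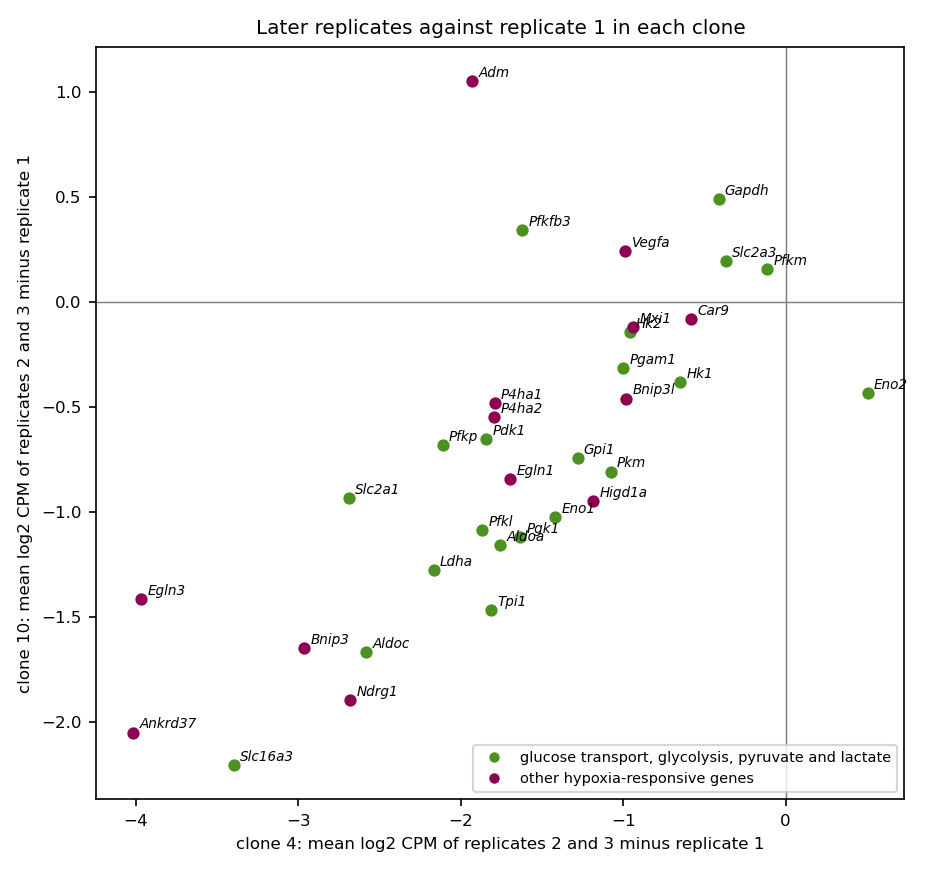
Mean log2 CPM of replicates 2 and 3 minus replicate 1, averaged over both gates, in clone 4 (horizontal axis) and clone 10 (vertical axis), a point per gene. Of the 34 genes, 27 lie below 0 in both clones, and Ankrd37, Egln3 and Slc16a3 lie furthest out in clone 4.

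Sequence upstream of the start was read for the members because many are known HIF targets. RefSeq promoter windows (GRCm38.p6) were matched by symbol for 31 of the 34 genes, which had 47 windows. The HIF core motif was searched as ACGTG or GCGTG on both strands in the 250 bases before each start, and neighbouring matches can overlap. It was found for 28 of 31 members (90.32%), beside 41.54% of the 27025 genes with a window. By window it was found in 37 of 47 (78.72%), beside 38.6% of 32851. Windows were not matched for base composition, and a match is not evidence of binding. The windows of 5 genes are shown 5′ to 3′ in the direction of the gene, namely 4 of the genes with the widest contrast between replicates and P4ha2, with the motif or its reverse complement in capitals.
Slc16a3, GRCm38.p6 chr11:120948817-120949066, plus strand: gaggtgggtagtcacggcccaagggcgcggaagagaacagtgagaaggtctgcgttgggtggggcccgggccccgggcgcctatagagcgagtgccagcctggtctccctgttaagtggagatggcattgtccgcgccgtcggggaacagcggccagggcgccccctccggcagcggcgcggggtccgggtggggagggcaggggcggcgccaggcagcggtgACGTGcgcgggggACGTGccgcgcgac
Bnip3, GRCm38.p6 chr7:138909507-138909756, minus strand: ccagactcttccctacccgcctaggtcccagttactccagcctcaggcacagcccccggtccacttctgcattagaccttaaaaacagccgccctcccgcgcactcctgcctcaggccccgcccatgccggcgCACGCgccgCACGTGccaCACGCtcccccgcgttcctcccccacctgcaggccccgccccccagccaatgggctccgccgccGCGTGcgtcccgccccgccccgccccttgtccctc
Ankrd37, GRCm38.p6 chr8:45999851-46000100, minus strand: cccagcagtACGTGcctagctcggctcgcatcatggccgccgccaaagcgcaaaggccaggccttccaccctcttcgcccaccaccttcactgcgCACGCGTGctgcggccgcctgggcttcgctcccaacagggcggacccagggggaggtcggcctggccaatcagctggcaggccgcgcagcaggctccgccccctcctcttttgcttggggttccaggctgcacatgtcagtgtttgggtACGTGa
Egln3, GRCm38.p6 chr12:54203875-54204124, minus strand: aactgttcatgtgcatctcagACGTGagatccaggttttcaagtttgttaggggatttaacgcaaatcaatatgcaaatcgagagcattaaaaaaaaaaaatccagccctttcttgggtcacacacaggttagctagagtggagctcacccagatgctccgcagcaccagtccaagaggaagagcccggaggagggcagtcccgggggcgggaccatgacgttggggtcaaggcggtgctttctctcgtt
P4ha2, GRCm38.p6 chr11:54100674-54100923, plus strand: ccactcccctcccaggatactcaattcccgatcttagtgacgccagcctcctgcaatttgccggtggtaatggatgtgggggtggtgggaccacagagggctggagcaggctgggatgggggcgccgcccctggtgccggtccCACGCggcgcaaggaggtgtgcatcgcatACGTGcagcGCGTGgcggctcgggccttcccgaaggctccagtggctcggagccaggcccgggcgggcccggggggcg

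The Slc16a3 window held 2 matches, both on the strand of the gene and 27 and 14 bases before the start. The Bnip3 window held 5, the Ankrd37 window 4 and the P4ha2 window 3. The Egln3 window held 1, 229 bases before the start. Windows with 4 or more matches were 2.58% of all windows. Members without the contrast between replicates held the motif too, such as Adm and Gapdh with 2 matches each. The windows of Gpi1, Tpi1 and Eno2 held none. Of these, Gpi1 and Tpi1 were among the 20 members highest in replicate 1 of all 4 groups, and Eno2 was not. Adm and Gapdh were picked as examples after the values were seen, and the motif was not tested against the contrast.

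Genes of the same pathways that are not among the 34 were set beside them. The 8 genes of the HIF machinery were all tested, and 0 were called by edgeR in any comparison in either fit. Hif1a, an oxygen-regulated subunit, had 176 and 144 CPM in GFP-positive replicates 2 and 3 of clone 10, against 127 CPM in replicate 1, and 186 and 146 CPM against 60.04 CPM in GFP-negative cells. In clone 4 the values were 157 and 192.1 CPM against 110 CPM in GFP-positive cells, and 157 and 152.4 CPM against 102 CPM in GFP-negative cells. Hif1a RNA was lowest in replicate 1 of every group, with a change of 0.67 (SE 0.19, adjusted p = 0.194 by edgeR). Epas1, the other main oxygen-regulated subunit, ran the opposite way and was highest in replicate 1 of every group. It had 64.1 and 28.1 CPM against 67.8 CPM in GFP-positive clone 10 cells, and 82.4 and 39.5 CPM against 105 CPM in GFP-negative ones. In clone 4 its levels were 53.3 and 107.0 CPM against 109.6 CPM, and 57.7 and 92.9 CPM against 121.8 CPM in the same gates. Its change was -0.56 (SE 0.36, adjusted p = 0.469). Both genes were singled out after their values were seen.

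Of 41 other glycolysis and pyruvate genes, 35 were tested. Within pairs 1 was called in clone 10 and over both clones, the mitochondrial phosphoenolpyruvate carboxykinase gene Pck2, lower by -0.55 over both clones (SE 0.10, adjusted p = 0.0284). The median change of the 35 was 0.00 between the gates within pairs and -0.15 between later and first replicates. Of 30 other hypoxia-responsive genes, 2 were called within pairs in clone 10, both higher, beside 3.49% of all genes called higher. These were Igfbp3, a binding protein of insulin-like growth factors (1.74, SE 0.37, adjusted p = 0.0384), and Plod2, a collagen lysyl hydroxylase (0.87, SE 0.20, adjusted p = 0.0478). Tmem45a was lower in GFP-positive clone 10 than in GFP-positive clone 4 cells across libraries (-1.59, SE 0.27, adjusted p = 0.0298 by edgeR). In that comparison 1.11% of all genes were called. The median of these 30 was -0.08 between the gates and -0.31 between later and first replicates. Of the 3 MYC family genes, Myc was called lower within pairs over both clones (-0.46, SE 0.10, adjusted p = 0.0443 by edgeR), beside 0.85% of all genes. Across libraries 0 of the 3 were called, beside 0.158% of all genes over both clones.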

How the data were processed

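RNA-seq counts were analysed for 12 libraries, 3 in each of 4 groups. Per the submitters' processing notes the authors used STAR 2.3.0e, HTSeq 0.6.0, DESeq, DESeq2 and genome build mm10, and the deposited counts are whole reads per gene. Neither the annotation release nor the strandedness of counting is given in the sources used here. The deposited comparison tables of each clone hold, per the file headers, size-factor-scaled counts (a signal), a log2 fold change of GFP-positive over GFP-negative cells, a test statistic (a score) and p-values, and only the log2 fold changes and adjusted p-values were used.

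Members were matched by gene symbol through these tables and the Ensembl ID. Genes were filtered with filterByExpr (minimum count 10, minimum total 15), scaled by TMM and tested in all genes with edgeR 4.0.16 (R 4.3.3; robust quasi-likelihood test, Benjamini-Hochberg adjusted p under 0.05), on 4 groups without a block (8 residual degrees of freedom) and with the 6 pairs as a block (4 residual degrees of freedom). Pairs come from the replicate numbers in the labels. Deviations from group means correlated at 0.548 to 0.822 in all 6 pairs, and at -0.541 to -0.228 between different numbers. Later and first replicates were compared on 6 sums of paired libraries with clone as a term (3 residual degrees of freedom). That comparison and the alternatives that leave out replicate 1 or use 1 gate were added after the data were seen. log2 CPM values used a prior count of 2. The tests were run on simulated data first. Alternatives were other size factors, no filter, DESeq2 1.42.0, passage as a covariate and single libraries or pairs left out.

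The members and gene lists were chosen with earlier results of these data known. By rule, 16 members were named: those called in either fit or in the deposited tables, and for each role the smallest p for the gate within pairs and for the clones in GFP-negative cells. Other members were named after their values were seen. Levels per kilobase used the union of exons, and shared stretches of 50 bases were counted in GENCODE transcripts. Intervals are 95% intervals of the fit.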

Additional observations from a re-analysis of the deposited data

Results flagged for a closer look

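For some genes, 1 of the 6 pair differences stood far from the other 5. P4ha1 differed by 0.604 log2 units, GFP-positive minus GFP-negative, in clone 10 replicate 1, while the other 5 pairs lay between -0.23 and -0.02. In CPM the pair had 55.7 in GFP-positive cells, against 36.6 in GFP-negative cells. Pfkl also stood apart in clone 10 replicate 1, with a difference of -1.24 log2 units. Its other 5 pairs lay between -0.33 and -0.000188. Chance alone flags about 1 in 20 such sets of 6, and 34 genes were examined.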

How the results depend on the processing

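Depth did not leave any member untested. Precision was set by 3 libraries a group and by replicate 1, and causes of the shifts below were not tested. GFP-negative replicate 1 of clone 4, when left out, turned most of the signs given here.

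Across libraries, DESeq2 called 1 member in clone 10, and the replicate block called 3 in clone 10 and 3 over both clones. The pairing check and the block are described with the processing. The change of Hk2 in clone 4 was 0.0104 with the replicate block and 0.15 without the 4 replicate 1 libraries. Without those 4 libraries the member median was -0.17 in clone 10, -0.0284 in clone 4 and -0.11 over both clones, and the clone medians were 0.0623 in GFP-positive and 0.14 in GFP-negative cells. Slc2a1 and Ankrd37 then differed between clones by 0.14 and 0.19 in GFP-negative cells. With passage as a covariate the medians were -0.16 for clone 10, 0.0861 for the difference of the gate changes, and 0.23 and 0.12 for the clones in GFP-positive and GFP-negative cells. Within pairs, DESeq2 with the replicate block called 9 members in clone 10, 1 in clone 4, 9 over both clones and 1 for the difference. With both replicate 1 pairs left out these counts were 10, 1, 7 and 2. For later against first replicates, 1 member was called with no filter on low counts (0.0156% of 19238 genes), 18 by DESeq2 and 17 in GFP-negative libraries alone. The median there was -0.75 in GFP-positive and -1.34 in GFP-negative libraries, and Adm gave 0.15 in GFP-positive libraries.

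With single libraries left out, the clone 4 gate median ran from -0.92 to 0.55, P4ha2 from -0.42 to 1.24, Hk2 from -0.36 to 0.43, Pdk1 from -1.07 to 0.63 and Aldoc from -1.89 to 0.87. In clone 10 the median ran from -0.66 to 0.017 and Aldoc from -1.5003 to 0.0577. Over both clones the median ran from -0.61 to -0.00192, Aldoc from -1.38 to 0.000552, Slc2a1 from -0.91 to 0.51, Egln1 from -0.74 to 0.0562, Ndrg1 from -1.40 to 0.0654 and Adm from -1.80 to 0.51. The median of the difference of the gate changes ran from -0.95 to 0.31. Between clones, the GFP-positive median ran from -0.60 to 0.30 and the GFP-negative median from -0.60 to 0.66. In GFP-negative cells Slc16a3 ran from -2.72 to 0.75, Slc2a1 from -1.36 to 0.59, Egln1 from -1.48 to 0.0785, Bnip3 from -2.11 to 0.92 and Ankrd37 from -2.88 to 1.498. With single pairs left out of the replicate block, called members numbered 1 to 4 in clone 10, 0 to 1 in clone 4 and 1 to 6 over both clones, while genes called in all numbered 132 to 657, 0 to 207 and 125 to 980. Hk2 in clone 4 then ran from -0.12 to 0.17 and the median of the difference from -0.27 to 0.0232. For later against first replicates, Eno2 ran from -0.74 to 1.39, Gapdh from -0.37 to 0.72, Adm from -1.43 to 2.21, Car9 from -0.70 to 0.0686 and the median from -1.63 to -0.68.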
